A study of Mus musculus with 15 samples.

Results

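The comparison described here takes the trigeminal ganglia (TG) of mice treated with either of 2 resolvin D6 (RvD6) lipids as 1 group of 10 samples and sets it against the 5 TG of vehicle-treated mice, so that all 15 samples of the series enter. A gene was taken as common to both lipids only where it moved the same way in the RvD6-standard samples and in the RvD6-isomer samples. Of the 55573 genes in the count table, 16567 passed the filter on low counts and were tested. Of these, 12110 genes (73.1%) had the same sign in the pooled comparison and under each lipid. Both lipids were set against the same 5 vehicle samples, so this count describes the genes the rule left and is no evidence of a shared response.

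All mice were male CD1, an outbred strain, bought at an age of 10 weeks, and every group carried the same injury. The surface layer and front stroma of the right cornea were scraped off within a circle of 2 mm. The eye was then treated 3 times a day for 12 days with vehicle (5 samples), RvD6-standard (5 samples) or RvD6-isomer (5 samples), after which the right TG was taken. RvD6-standard is RvD6 itself, a dihydroxylated derivative of docosahexaenoic acid. RvD6-isomer, named RvD6si by the study, was isolated from tears and from cornea culture medium. The study identified it as a stereoisomer of RvD6 by its matching mass fragments and ultraviolet spectrum and its different elution time. Stereoisomers share their atoms and bonds and differ in spatial arrangement. No group was uninjured, and the values therefore say how lipid-treated and vehicle-treated TG differed after injury, not how injury itself acted. The samples are whole ganglia of mixed cells, so fewer cells of a type and less RNA per cell cannot be told apart.

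The TG holds the cell bodies of the sensory neurons that supply the cornea, wrapped by satellite glial cells, with the myelinating Schwann cells of their axons beside them. Corneal nerve endings sense cold, touch and pain, release neuropeptides such as substance P, and regrow after injury from these cell bodies. Resolvins are lipid mediators made from omega-3 fatty acids and are known for ending inflammation. The sensory neuron markers were present in every sample, with a summed level of 14600 to 16900 CPM (counts scaled to the library total) in vehicle, 8860 to 15700 in RvD6-standard and 15100 to 18200 in RvD6-isomer.

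Total counts ranged from 4125962 to 9903396 per sample. They averaged 6981000 ± 1653000 (SD, n = 10) in the lipid-treated samples and 8803000 ± 1017000 (n = 5) in vehicle (two-sided exact permutation test, p = 0.036, 0.0539 after Benjamini-Hochberg adjustment over 3 such measures). Libraries standard 9 and isomer 11 stood apart from the others in their dependence on GC content, and isomer 15 in its blood cell markers. Values without them are given for the called genes and for some of the gene lists.

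Across the 16567 genes tested, 6 passed an adjusted p of 0.05 in edgeR's quasi-likelihood test (0.0362% of genes tested). Alpl, Antxr2, Spcs3, Acvr2a and Svip rose (5 genes, 0.0302%) and Cgrrf1 fell (1 gene, 0.00604%), each with an adjusted p of 0.0475. All 6 had the same sign under each lipid. Before adjustment, 2722 genes (16.4%) had a p below 0.05, of which 1510 (9.11%) were higher and 1212 (7.32%) lower with the lipids. All 10 lipid-treated samples lay above all 5 vehicle samples for 61 genes (0.368%) and below them for 76 genes (0.459%). DESeq2 on the same counts called 646 genes (3.9%), 390 higher (2.35%) and 256 lower (1.55%). All 6 genes called by edgeR were among those 646.

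For 4 of the 6 genes, the stretch of DNA just before an annotated transcription start is printed here, to show the promoter sequence that the annotation places before the genes that passed. Which start these ganglia use was not measured, and Alpl has 2 listed starts. Each is the 250 bases before the first start that RefSeq lists, on mouse build GRCm38.p6, written 5′ to 3′ along the gene's strand. Capitals mark 3 short motifs, each searched on both strands. The first is the GC box GGGCGG, bound by Sp family factors. The second is the TATA box TATAAA, at which transcription complexes assemble. The third is the CCAAT box, named by its own letters. The E-box CACGTG, bound by MYC and clock proteins, was searched in the same way. The Alpl window is chr4:137796385-137796634 (minus strand), that of Antxr2 chr5:98031018-98031267 (minus), that of Acvr2a chr2:48813859-48814108 (plus) and that of Cgrrf1 chr14:46831884-46832133 (plus).
Alpl: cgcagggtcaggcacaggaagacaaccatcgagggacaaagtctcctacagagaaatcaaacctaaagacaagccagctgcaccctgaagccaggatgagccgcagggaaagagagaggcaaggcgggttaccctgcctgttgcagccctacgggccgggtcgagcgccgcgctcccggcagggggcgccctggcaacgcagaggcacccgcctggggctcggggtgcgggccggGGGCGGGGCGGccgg
Antxr2: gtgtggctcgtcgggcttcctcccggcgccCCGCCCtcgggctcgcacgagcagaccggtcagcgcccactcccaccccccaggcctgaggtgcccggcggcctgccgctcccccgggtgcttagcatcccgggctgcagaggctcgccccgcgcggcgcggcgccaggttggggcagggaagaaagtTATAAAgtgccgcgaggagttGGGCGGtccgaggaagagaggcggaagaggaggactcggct
Acvr2a: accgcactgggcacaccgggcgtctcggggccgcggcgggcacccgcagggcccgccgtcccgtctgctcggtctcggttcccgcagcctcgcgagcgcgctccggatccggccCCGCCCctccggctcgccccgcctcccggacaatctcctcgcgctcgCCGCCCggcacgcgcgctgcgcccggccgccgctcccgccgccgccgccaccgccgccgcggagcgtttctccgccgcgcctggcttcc
Cgrrf1: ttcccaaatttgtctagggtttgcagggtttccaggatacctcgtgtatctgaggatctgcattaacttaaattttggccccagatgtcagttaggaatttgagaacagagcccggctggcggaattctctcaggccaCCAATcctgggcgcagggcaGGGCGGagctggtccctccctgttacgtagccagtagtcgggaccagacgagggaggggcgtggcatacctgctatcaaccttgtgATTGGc

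All 4 windows held at least 1 GC box, and in that of Alpl 2 matches overlapped by a single base. Antxr2 alone of the 4 had a TATA box, and Cgrrf1 alone had the CCAAT box, once in each orientation. None held an E-box. An annotated GENCODE transcript already covers the last 26 bases of the Antxr2 window and the last 9 of the Cgrrf1 window. The CCAAT match at base 245 of the Cgrrf1 window lies within those covered bases. Among 11114 promoters of tested genes, 57.6% held a GC box, 36.2% a CCAAT box, 8.23% an E-box and 6.65% a TATA box. The GC box share was 60.1% among 1149 promoters of genes higher at an unadjusted p below 0.05 and 55.6% among 804 promoters of the lower ones, so a GC box was common among promoters of tested genes in either direction. GC content was 68.4% in the Alpl window, 72.8% in that of Antxr2, 82% in that of Acvr2a and 54.4% in that of Cgrrf1, against a median of 59.6% over the promoters of tested genes.

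Alpl encodes tissue-nonspecific alkaline phosphatase, an enzyme on the cell surface that removes phosphate groups (ENSMUSG00000028766.10, GRCm38 chr4:137741733-137796384). Its normalized counts were 105, 73.9, 100.4, 96.6 and 80.7 in the vehicle samples, 268, 214, 147, 226 and 194 in RvD6-standard and 178, 145, 168, 199 and 184 in RvD6-isomer. Every lipid-treated sample exceeded every vehicle sample, and the pair of lipid groups overlapped. The level was 192 ± 37.1 (SD, n = 10) with the lipids and 91.2 ± 13.3 (n = 5) with vehicle, a log2 fold change of 1.07 with a standard error (SE) of 0.18. It was 1.19 (SE 0.20) for RvD6-standard and 0.93 (SE 0.20) for RvD6-isomer.

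Antxr2 encodes a membrane receptor for extracellular matrix proteins that anthrax toxin also uses (ENSMUSG00000029338.13, chr5:97882783-98031043). Vehicle samples had 43.3, 65.0, 45.0, 65.0 and 33.8 normalized counts, RvD6-standard samples 205, 165, 64.5, 218 and 166, and RvD6-isomer samples 263, 229, 138, 175 and 91.3. Of the 10 lipid-treated samples 9 lay above all vehicle samples, and standard 8, at 64.5, lay within the vehicle range. The log2 fold change was 1.76 (SE 0.30), from 50.4 ± 14.0 to 171 ± 61.6 normalized counts, with 1.69 (SE 0.33) for RvD6-standard and 1.83 (SE 0.33) for RvD6-isomer.

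Spcs3 and Svip both act at the endoplasmic reticulum. Spcs3 is a subunit of the signal peptidase that trims proteins entering it (ENSMUSG00000054408.9, chr8:54520433-54529998). Its normalized counts were 93.0, 153, 92.4, 100.5 and 104 in vehicle, 188, 292, 220.2, 576 and 252 in RvD6-standard and 546, 442, 217, 280.1 and 316 in RvD6-isomer. The groups did not overlap with vehicle, although standard 9 was far above the other RvD6-standard samples, and isomer 11 held the highest RvD6-isomer value. The log2 fold change was 1.61 (SE 0.28), and 1.33 (SE 0.22) without standard 9 and isomer 11. On the opposite strand another gene overlaps Spcs3, and since the counting command in the file header sets no strand option, how many of its counts belong to that gene is unknown.

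Svip, the small VCP-interacting protein, is known as an inhibitor of the pathway that extracts misfolded proteins from the reticulum for degradation (ENSMUSG00000074093.4, chr7:51997171-52006018). Vehicle samples had 475, 351, 528, 436 and 585 normalized counts. RvD6-standard samples had 659, 887, 745, 1236 and 1012, and RvD6-isomer samples 1545, 1124, 1096, 1526 and 794. All 10 lipid-treated samples were above the highest vehicle sample. The mean was 475 ± 88.9 in vehicle and 1062 ± 308 with the lipids, a log2 fold change of 1.15 (SE 0.20), and the estimate was 0.92 for RvD6-standard and 1.35 for RvD6-isomer.

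Acvr2a encodes a type II activin receptor, a kinase that receives signals of the transforming growth factor family (ENSMUSG00000052155.5, chr2:48814109-48903269). It had 122.6, 97.0, 86.8, 93.6 and 65.9 normalized counts in vehicle, 137, 214, 195, 206 and 173 in RvD6-standard and 202, 244, 197, 174 and 168 in RvD6-isomer. Again no lipid-treated sample fell within the vehicle range, and the gap was narrow, between vehicle 1 and standard 6. The log2 fold change was 1.03 (SE 0.18), 0.97 for RvD6-standard and 1.08 for RvD6-isomer. Like Spcs3, it overlaps a gene on the opposite strand.

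Cgrrf1, a RING finger protein of the endoplasmic reticulum that attaches ubiquitin, was the only gene that fell (ENSMUSG00000055128.15, chr14:46832125-46854193). Its normalized counts were 523, 500.0, 575, 509 and 534 in vehicle, 308, 304, 442, 326 and 303 in RvD6-standard and 322, 237, 283, 343 and 329 in RvD6-isomer. All 10 lipid-treated samples lay below the lowest vehicle sample, with standard 8 nearest to it. The mean went from 528 ± 29.5 to 320 ± 52.1, a log2 fold change of -0.73 (SE 0.13), with -0.67 for RvD6-standard and -0.81 for RvD6-isomer.

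**Figure D1:**
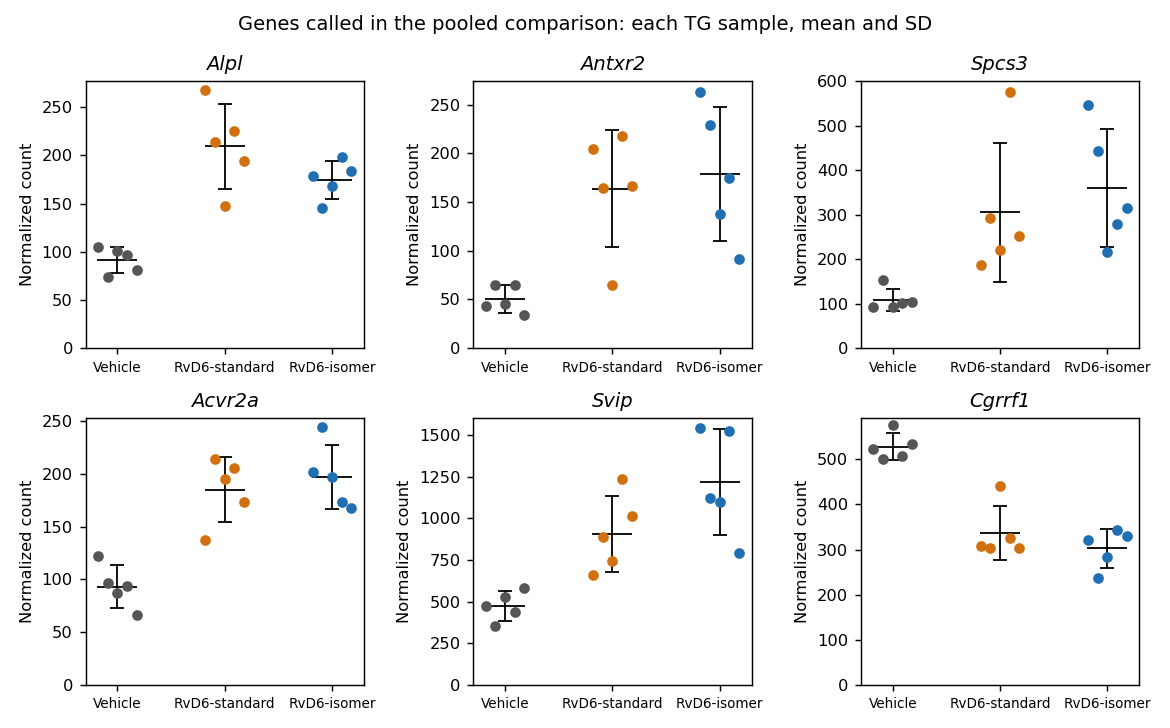
Normalized counts (vertical axes, starting at 0) of the 6 genes called in the pooled comparison in each TG sample, by treatment group, with the mean and SD of 5 samples. Lipid-treated samples lie apart from vehicle for all but Antxr2, where standard 8 at 64.5 sits among the vehicle samples.

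These calls were close to the threshold. With 1 library left out at a time, 13 of the 15 fits called 0 genes at the adjusted threshold, with 2110 to 2904 genes at an unadjusted p below 0.05 over the 15 fits, while the fit without standard 6 called 16 and the fit without standard 8 called 14. The estimates themselves moved little. Over the 15 fits the log2 fold change ranged from 0.99 to 1.11 for Alpl, 1.65 to 1.87 for Antxr2, 1.49 to 1.76 for Spcs3, 0.92 to 1.14 for Acvr2a, 1.06 to 1.24 for Svip and -0.79 to -0.69 for Cgrrf1. The largest unadjusted p of any of the 6 in those fits was 0.000134, for Svip.

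Behind these 6, the next genes by p value did not pass (adjusted p of 0.0615 and above in edgeR) and are given as values, with 7 higher and 11 lower genes taken by the smallest p. Cldn12, of the claudin family of cell junction proteins, had 143 ± 36.6 normalized counts with the lipids and 49.9 ± 19.7 with vehicle (log2 1.51, SE 0.28), with all 10 lipid samples above all vehicle samples. Nxt2, a factor that exports mRNA from the nucleus, had 345 ± 197 against 94.4 ± 12.5 (log2 1.86, SE 0.35). For Nxt2 the vehicle samples lay between 77.2 and 110.4, RvD6-standard between 157 and 508 and RvD6-isomer between 233 and 770, so here too the groups were apart.

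Slc16a1, the lactate and monocarboxylate transporter MCT1 that glia use to feed axons, had 465.7 ± 192 normalized counts with the lipids against 171 ± 39.9 (log2 1.44, SE 0.28). Ugt8a, which makes the main glycolipid of myelin, had 2348 ± 811 against 1131 ± 141 (log2 1.04, SE 0.21), and Dync1i2, a chain of the dynein motor that carries cargo back along axons, 897 ± 252 against 464 ± 42.9 (log2 0.94, SE 0.18). Ints3, a subunit of the Integrator complex, was at log2 1.25 (SE 0.25). Pnpla8, a phospholipase A2 that does not need calcium, was at 0.71 (SE 0.14) and overlaps a gene on the opposite strand. In each of these the 10 lipid samples lay above the vehicle samples, as they did for 0.368% of all genes tested. Genes chosen by the smallest p of this same contrast tend to separate in this way. For these and for Cldn12 and Nxt2 the separation is thus no further support.

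The lower genes next in line differed by smaller amounts, log2 -0.83 to -0.51. Haus7, a subunit of the augmin complex that branches microtubules, was at -0.83 (SE 0.17) with 130 ± 24.6 normalized counts against 229 ± 30.5 in vehicle. Rasgef1c, with a domain that activates Ras proteins, was at -0.82 (SE 0.18), Nans, the enzyme that makes sialic acid, at -0.71 (SE 0.14), and Them4, an acyl-CoA thioesterase, at -0.67 (SE 0.15). Mea1 was at -0.64 (SE 0.13), Pop5, a protein of ribonuclease P, at -0.58 (SE 0.13), Psmc5, an ATPase of the proteasome, at -0.56 (SE 0.12), and Mthfd2, a mitochondrial enzyme of folate metabolism, at -0.56 (SE 0.13). Ccdc28a was at -0.55 (SE 0.12). Dnpep, an aminopeptidase, and Scg5, the neuroendocrine protein 7B2 that assists a prohormone convertase, were both at -0.51 (SE 0.11). All 10 lipid samples lay below the vehicle samples for 8 of these 11 genes, and 9 of 10 did for Nans, Pop5 and Rasgef1c. Over all genes tested 0.459% had all 10 below. These genes too were chosen by the smallest p of this contrast, so their separation is no further support. Nans and Mea1 overlap a gene on the opposite strand.

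**Figure D2:**
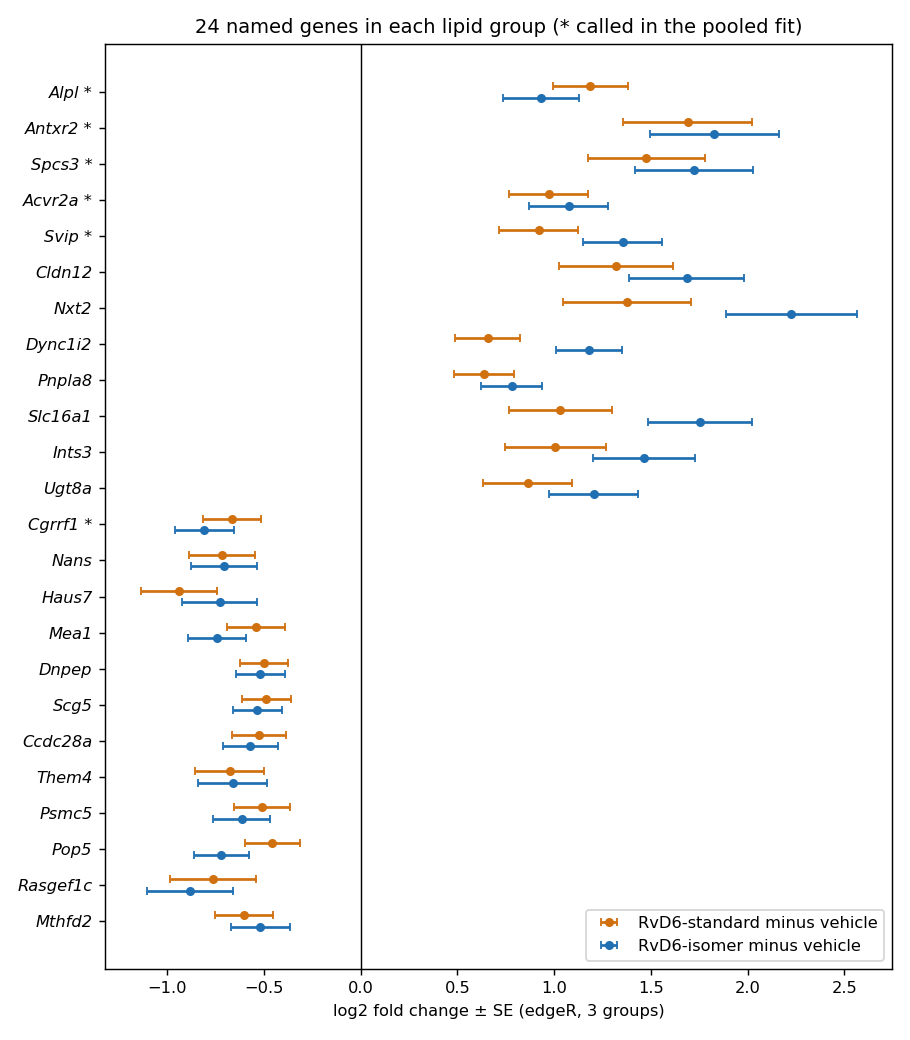
Log2 fold change against vehicle with its SE (horizontal axis) of the 12 higher and 12 lower genes with the smallest p in the pooled comparison, for RvD6-standard and RvD6-isomer separately (5 samples each against the same 5 vehicle samples). Each gene lies on the same side of 0 under both lipids, as the choice of genes required, and an asterisk marks the 6 that passed.

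The direct difference between RvD6-standard and RvD6-isomer was tested for the 31 genes named here by the fixed rule, as 1 pair of compounds at the same dosing schedule. RvD6-isomer was isolated from tears and culture medium and held traces of other lipids by the study's account. The contrast is thus between preparations and not of stereochemistry alone. None differed at an adjusted p of 0.05, with p adjusted over all 16567 genes. For Alpl the RvD6-isomer minus RvD6-standard log2 difference was -0.25 (95% interval -0.66 to 0.15), for Antxr2 0.14 (-0.53 to 0.81), for Spcs3 0.25 (-0.37 to 0.86), for Acvr2a 0.10 (-0.32 to 0.52) and for Cgrrf1 -0.14 (-0.46 to 0.18). These intervals reach as far as 0.86, for Spcs3, so the pair are not shown to act alike. Among the 31 genes, 6 had an unadjusted p below 0.05 in edgeR, all with the higher value under RvD6-isomer. They were Dync1i2 (0.53, interval 0.17 to 0.88, adjusted p = 0.309), Slc16a1 (0.72, 0.17 to 1.27, adjusted p = 0.392), Nxt2 (0.85, 0.17 to 1.53, adjusted p = 0.423), Trpm8 (0.56, 0.03 to 1.09, adjusted p = 0.524), C9orf72 (0.34, 0.01 to 0.67, adjusted p = 0.538) and Svip (0.43, 0.01 to 0.86, adjusted p = 0.547). Over all genes the same test had 8.82% at an unadjusted p below 0.05 (4.18% higher and 4.64% lower under RvD6-isomer), and it called 39 (0.235%), of which 2 were higher (0.0121%) and 37 lower (0.223%). That count was 2 without isomer 11, isomer 13 or isomer 14, 13 without standard 8, 14 without standard 9, 24 without standard 10 and 151 without isomer 15.

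Taken alone against vehicle, RvD6-standard gave 0 genes at the adjusted threshold in edgeR (0%, and 309 in DESeq2), with 13.6% of genes at an unadjusted p below 0.05, 7.63% higher and 5.99% lower. RvD6-isomer gave 111 (0.67%), of which 87 were higher (0.525%) and 24 lower (0.145%), with 16% of genes at an unadjusted p below 0.05, 8.69% higher and 7.3% lower. The 6 genes called in the pooled comparison all passed under RvD6-isomer (edgeR adjusted p of 0.0127 to 0.0363) and missed the threshold under RvD6-standard (0.0784 to 0.0967). The count of 111 rested on single libraries. Without isomer 11 edgeR called 0 genes for RvD6-isomer (2002 at an unadjusted p below 0.05), without any 1 of the vehicle samples 6 to 13 and without isomer 14 13, while it called 175 without isomer 12 and 252 without standard 9. For RvD6-standard the count was 51 without isomer 15, 17 without standard 7 and 1 without vehicle 2. With the larger of both p values taken for each gene, 0 genes passed after adjustment in edgeR and 8 in DESeq2, while 491 were higher (2.96%) and 441 lower (2.66%) at an unadjusted p below 0.05 in both. The pooled fit and these counts rest on the same 5 vehicle samples.

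Among the genes that the study plotted, Tac1, the precursor of substance P, had 2954, 2600, 3179, 2519 and 3937 normalized counts in vehicle, 2600, 2503, 2315, 2028 and 2117 in RvD6-standard and 1929, 2182, 2003, 2280 and 2453 in RvD6-isomer. Of the 10 lipid samples 9 lay below every vehicle sample, and standard 6 did not. The log2 difference was -0.45 (SE 0.11, edgeR adjusted p = 0.106), with -0.41 under RvD6-standard and -0.49 under RvD6-isomer. Calcb, which encodes a calcitonin gene-related peptide, had 1050, 1222, 1172, 1282 and 1191 in vehicle, 1022, 704, 1011, 742 and 681 in RvD6-standard and 861, 1030, 880.0, 973 and 947 in RvD6-isomer. All 10 lipid samples were below vehicle. The log2 difference was -0.43 (SE 0.12, edgeR adjusted p = 0.128), and the value was -0.25 once the trend with gene length was removed.

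Rictor, the defining subunit of mTOR complex 2, was at log2 0.71 (SE 0.21, edgeR adjusted p = 0.128), with 233 ± 58.0 normalized counts against 141 ± 39.7. It was at 0.68 under RvD6-standard and 0.74 under RvD6-isomer, and 7 of the 10 lipid samples lay above all vehicle samples. Gpm6a, a membrane glycoprotein of growing axons, was at 0.95 (SE 0.24, edgeR adjusted p = 0.106), 0.81 and 1.07 by lipid. C9orf72 was at 0.47 (SE 0.15, adjusted p = 0.154), with 0.29 under RvD6-standard and 0.63 under RvD6-isomer. Nrp1, a receptor for semaphorins, was at 0.46 (SE 0.15, adjusted p = 0.163), with 0.35 and 0.55. Of the 10 lipid samples 5 lay above all vehicle samples for C9orf72 and 7 for Nrp1. Trpm8, the cold-sensing channel, was at 0.53 (SE 0.24, adjusted p = 0.285), with 0.22 under RvD6-standard and 0.78 under RvD6-isomer, and standard 9 lay below every vehicle sample. None of the 7 passed in edgeR. In DESeq2 6 of them passed, all but Trpm8, beside 3.9% of all genes. The study had picked these genes from the same samples, which it analyzed with DESeq2, so that count is no independent support. Trpm8 and C9orf72 overlap a gene on the opposite strand, and Nrp1 one on its own strand.

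Groups of genes with shared roles were described by how many of their tested members had an unadjusted p below 0.05 in each direction, beside 9.11% higher and 7.32% lower over all genes. No member of the 36 lists passed the adjusted threshold in the pooled edgeR fit, so none is said to have changed with the lipids. Under RvD6-isomer alone 2 of 74 chaperones passed as higher. So did 1 member each of the ubiquitin E2 (32 tested), ephrin (34) and mRNA export (17) lists, and 1 of 19 V-ATPase subunits passed as lower. Over all genes 0.525% passed as higher and 0.145% as lower. Members named in the next paragraphs beyond the rule were chosen after their values were seen, and the other fits in which the lists were counted were added after the data were seen.

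The groups with most members on the lower side were those of mitochondria and protein breakdown. The proteasome list, called proteasome subunits below, was drawn by gene name and also holds activator and assembly genes (Psme and Psmg). Of its 47 tested members, 24 (51.1%) were lower and 2 (4.26%) higher at an unadjusted p below 0.05. The median log2 difference was -0.29, against 0.04 over all genes. DESeq2 called 11 lower and 1 higher, beside 1.55% lower and 2.35% higher over all genes. Psmb6, a catalytic subunit, was at -0.39 (SE 0.10, 1864 ± 192 against 2423 ± 269 normalized counts) and, with Psmc5, Psmd7 and Psmd8, had all 10 lipid samples below vehicle. Over all genes tested 0.459% had all 10 below. Psmc1 was at -0.44 (SE 0.12). The 2 higher members, Psme3 at 0.67 (SE 0.18) and Psme4 at 0.40, encode activator caps that replace the usual regulatory particle rather than parts of it.

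Complex I, the entry point of the respiratory chain, had 17 of 37 nuclear-encoded subunits (45.9%) lower and 0 higher, and all 37 estimates were negative, with a median of -0.32 (-0.24 under RvD6-standard and -0.39 under RvD6-isomer). Ndufa10 was at -0.48 (SE 0.13) and Ndufs7 at -0.45 (SE 0.13). Among complexes II to V, 20 of 42 (47.6%) were lower, such as Cox6b1 at -0.53 (SE 0.13, 1166 ± 217 against 1679 ± 158), and 2 were higher, Sdhd at 0.70 (SE 0.22) and Atp5s at 0.75. Mitochondrial ribosomal proteins had 35 of 77 (45.5%) lower and 0 higher, with Mrpl18 at -0.47 (SE 0.12) and Mrpl36 at -0.58 (SE 0.15). The 13 mRNAs encoded in the mitochondrial genome itself had 0 in either direction, with a median of 0.13. It was 0.33 under RvD6-standard and -0.1 under RvD6-isomer, and 6 of the 13 had the same sign under both.

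V-ATPase subunits, which acidify lysosomes and synaptic vesicles, had 7 of 19 (36.8%) lower and 1 higher. Atp6v1g2 was at -0.62 (SE 0.14) and Atp6v0e2 at -0.51 (SE 0.13), while Atp6v0a1 was at 0.91. Chaperones had 16 of 74 (21.6%) lower and 5 (6.76%) higher, with Hspb1 at -0.51 (SE 0.12), the cytosolic chaperonin subunit Cct7 at -0.41 (SE 0.12) and Dnajc27 at 0.56 (SE 0.13). Cytosolic ribosomal proteins had 8 of 82 (9.76%) lower, close to the share of all genes, with a median of -0.18 that was -0.03 under RvD6-standard and -0.34 under RvD6-isomer. That count moved with the fit: it was 25 (30.5%) with neutrophil markers as a covariate, 15 (18.3%) with muscle markers, 3 (3.66%) with the length trend removed and 3 of 81 (3.7%) without standard 9 and isomer 11. Without those 2 libraries 19 proteasome subunits (40.4%), 30 mitochondrial ribosomal proteins (39%), 13 subunits of complex I (35.1%), 15 of complexes II to V (35.7%) and 6 of V-ATPase (31.6%) were lower, beside 5.8% of all genes.

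Part of these shares moved with gene length. The genes higher at an unadjusted p below 0.05 had a median exon length of 5218 bases and the lower ones 2234, against 3968 over all genes tested. Among the 3314 shortest genes 3.14% were higher and 13.6% lower, and among the 3313 longest 13.3% were higher and 1.96% lower. The slope of log2 level on log2 length averaged 0.0284 ± 0.058 in the lipid samples and -0.0567 ± 0.0568 in vehicle (two-sided exact permutation test, p = 0.0187, 0.0539 after adjustment over 3 measures), and vehicle 3 and vehicle 5 were each needed for that unadjusted p to stay below 0.05 (p = 0.054 without either). With the length trend removed from each library, 7.93% of all genes were higher and 6.3% lower. Proteasome subunits then had 20 of 47 (42.6%) lower, mitochondrial ribosomal proteins 22 of 77 (28.6%) and complex I 8 of 37 (21.6%). Complexes II to V had 9 of 42 (21.4%) lower and V-ATPase 7 of 19 (36.8%). Of the 13 mitochondrially encoded mRNAs 5 (38.5%) came out higher. With the GC trend removed instead, 0 of those 13 were higher and 2 lower, so their direction depended on the fit. The 6 called genes all passed with the length trend removed (adjusted p = 0.0489 in edgeR).

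**Figure D3:**
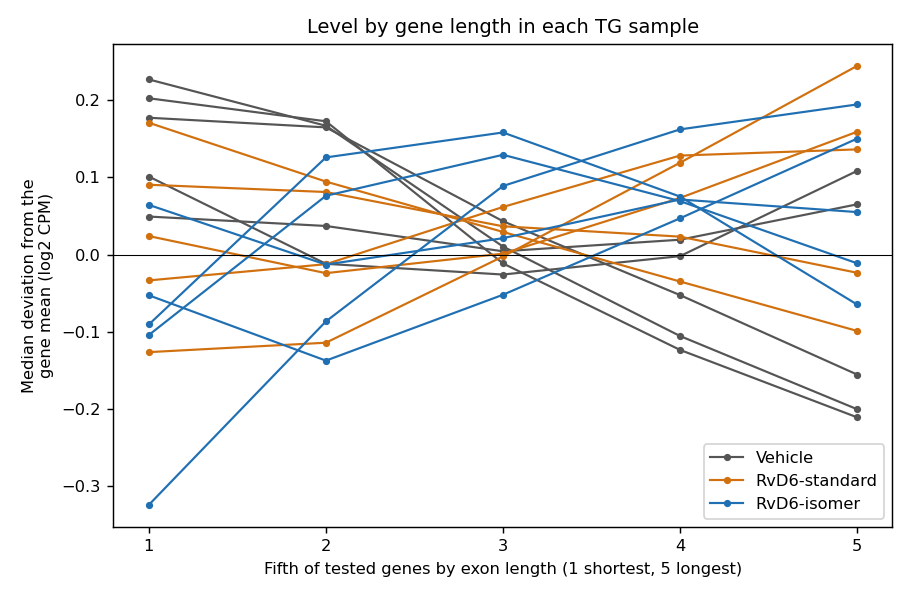
Median deviation of log2 CPM from each gene's mean over samples (vertical axis) in 5 classes of tested genes by exon length (horizontal axis, shortest to longest), 1 line per TG sample. Lines of 3 vehicle samples run from 0.177 to 0.227 for short genes to -0.211 to -0.155 for long ones, and the line of isomer 11, starting at -0.324, runs most steeply the other way.

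On the higher side, splicing factors of the SR and hnRNP families had 6 of 31 (19.4%) higher and 0 lower. Hnrnpa2b1 was at 0.48 (SE 0.11) with 1093 ± 130 normalized counts against 777 ± 33.7, all 10 lipid samples above vehicle, and Hnrnpk was at 0.44 (SE 0.15). The ubiquitin E2 list had 8 of 32 (25%) higher, among them Ube2j1 of the endoplasmic reticulum at 0.63 (SE 0.19) and Ube2d1 at 1.19 (SE 0.36), and 1 lower, Ube2cbp, which is a partner of an E2 rather than an E2 enzyme. Semaphorins, plexins and neuropilins, which steer growing axons, had 5 of 28 (17.9%) higher and 1 lower, with Sema6d at 0.50 (SE 0.16) and Sema3c at 0.69 (SE 0.28). The list of ephrins, Eph receptors, Slits, Robos and netrins had 5 of 34 (14.7%) higher and 0 lower. Its members Ntng2 at 1.12 (SE 0.26, 159 ± 56.8 against 72.7 ± 16.1) and Epha7 at 1.04 (SE 0.35) guide axons, and so does Slit2 at 0.60, whereas Unc50 entered by its name alone and is no netrin receptor. With standard 9 and isomer 11 left out, these 4 lists had 7, 6, 4 and 5 members higher, beside 6.92% of all genes. With the length trend removed they had 6, 6, 3 and 5, beside 7.93%, so the semaphorin list, with a median length of 7800 bases, came to 10.7%. The ephrin list had 8 higher (23.5%) with neutrophil markers as a covariate.

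Genes of cholesterol and fatty acid synthesis had 5 of 23 (21.7%) higher and 1 lower. The transcription factors that drive them were at 0.62 (SE 0.20) for Srebf1 and 0.62 (SE 0.21) for Srebf2, and Msmo1, an enzyme of cholesterol synthesis, at 0.73 (SE 0.26). Without standard 9 and isomer 11 the count was 3 of 23 (13%). Among mRNA export factors 3 of 17 were higher, Nxt2, Ddx39 and Thoc2, and 2 lower, Thoc3 and Rae1. The mTOR list had 1 of 19 higher, Rictor, and 1 lower, Rheb at -0.23 (SE 0.11), with a median of 0.01.

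**Figure D4:**
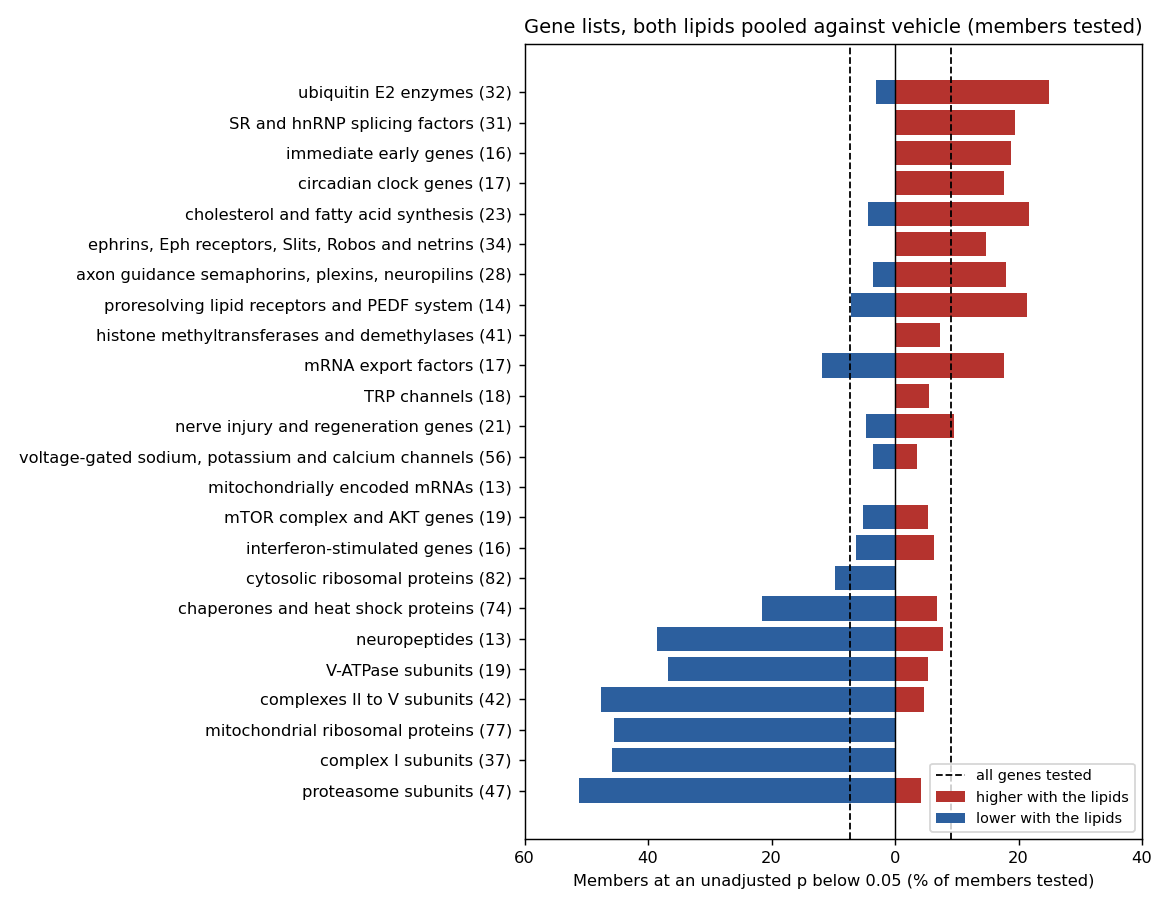
Share of tested members (horizontal axis, percent) with an unadjusted p below 0.05 in the pooled comparison, to the right for higher and to the left for lower with the lipids, for 24 gene lists with the number tested in brackets. Dashed lines give the shares over all genes, 9.11% and 7.32%. Proteasome subunits (51.1%) reach furthest to the left, followed by complexes II to V (47.6%), complex I (45.9%) and mitochondrial ribosomal proteins (45.5%).

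Neuropeptides of sensory neurons were mostly on the lower side, with 5 of 13 (38.5%) lower and 1 higher. Beside Tac1 and Calcb, Nts was at -0.67 (SE 0.21), Nmb at -0.49 (SE 0.17) and Calca at -0.24 (SE 0.11), while Vip was at 3.84 (SE 1.39) from 12.0 ± 15.2 to 174 ± 238 normalized counts, a spread larger than its mean. Of the 20 sensory neuron markers 5 (25%) were lower. Tac1 and Calca are on both lists and count among these 5 as well. Peripherin, Prph, was also lower at -0.35 (SE 0.14) and Tubb3 at -0.34 (SE 0.15), and Ntrk3, the neurotrophin-3 receptor, was higher at 0.46 (SE 0.21). The median of the sensory neuron list was -0.30 under RvD6-standard and 0.06 under RvD6-isomer. Its lower count was 3 with the length trend removed or without standard 9 and isomer 11, and 2 with neutrophil or muscle markers as a covariate, while 4 neuropeptides were lower in each of those fits. Voltage-gated channels had 2 of 56 in each direction, TRP channels 1 of 18 higher, and nerve injury genes 2 of 21 higher and 1 lower.

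Myelinating Schwann cell markers had 5 of 15 (33.3%) higher, such as Prx at 0.60 (SE 0.21) and Gldn at 0.63 (SE 0.23), and 2 lower, Ncmap at -0.37 (SE 0.13) among them. Satellite glial cell markers had 1 of 14 higher and 2 lower, with 9 positive estimates and a median of 0.12 (0.04 under RvD6-standard and 0.16 under RvD6-isomer). The lipid carrier Apoe went against that median, at -0.39 (SE 0.10) with all 10 lipid samples below vehicle. In the list of lipid mediator receptors and the pigment epithelium-derived factor (PEDF) system, Pnpla2, the receptor of PEDF and a lipase, was at 0.93 (SE 0.26, 166 ± 62.6 against 86.4 ± 22.2), and Serpinf1, which encodes PEDF itself, at -0.36 (SE 0.15). That list had 3 of 14 higher and 1 lower, with a median of 1.2 under RvD6-standard and 0.04 under RvD6-isomer. With neutrophil markers as a covariate 1 was higher and the pooled median went from 0.83 to 0.07, and with muscle markers 1 was higher and the median was 0.69.

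Markers of cells other than neurons and glia also differed, and their part in the results above was not tested except as stated. Neutrophil and precursor markers had 9 of 15 (60%) higher and all 15 estimates were positive, with a median of 2.61 under RvD6-standard and 1.06 under RvD6-isomer. Their summed level was 165 to 846 CPM in vehicle, 995 to 3160 in RvD6-standard and 87.7 to 2580 in RvD6-isomer. Within RvD6-isomer the high value came from isomer 15 alone, and the other 4 libraries were at 87.7 to 194 CPM, within or below the vehicle range. Erythroid markers were also highest in RvD6-standard and isomer 15, with 2460 to 5260 CPM in vehicle, 5930 to 10900 in RvD6-standard and 1160 to 13300 in RvD6-isomer, and 3 of 12 higher. Macrophage markers had 4 of 15 higher, with 306 to 627, 744 to 1350 and 285 to 1050 CPM, and 2 higher with neutrophil or muscle markers as a covariate. The median was 1.55 under RvD6-standard and 0.43 under RvD6-isomer for erythroid markers, and 0.47 and 0.06 for macrophage markers. Within RvD6-isomer only isomer 15 lay above the vehicle range for either list. Without standard 9 and isomer 11 the counts were 10 of 15 for neutrophil markers, 6 of 12 for erythroid and 4 of 15 for macrophage markers. Without isomer 15 they were 8 of 15, 3 of 12 and 4 of 15, with all RvD6-standard samples kept, so these counts show no change common to both lipids. In that fit the pooled median went from 2.04 to 1.82 for neutrophil markers and from 1.23 to 0.87 for erythroid markers. With the mean of the neutrophil markers as a covariate, a fit added after the data were seen, all 6 called genes passed (edgeR adjusted p of 0.0113 to 0.036) and 23 genes passed in all. Without isomer 15 none of the 6 passed (adjusted p = 0.0782 for each in edgeR, 2546 genes at an unadjusted p below 0.05), while their log2 fold changes were 1.07 for Alpl, 1.83 for Antxr2, 1.62 for Spcs3, 1.05 for Acvr2a, 1.19 for Svip and -0.74 for Cgrrf1.

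Skeletal muscle markers had 12 of 14 (85.7%) higher in the pooled fit, yet 0 of the 14 had the same sign under both lipids. Without standard 9 and isomer 11 the count was 7 of 14, and with neutrophil markers as a covariate 0. Their median was 3.86 under RvD6-standard and -0.98 under RvD6-isomer, from 138 to 3600 CPM against 39.6 to 90.5 CPM, with 50.1 to 214 in vehicle and the highest values in standard 9 and standard 8. These 12 genes are thus no change common to both lipids. With the mean of the muscle markers as a covariate, also added after the data were seen, 3 genes passed in all, and the 6 called genes had adjusted p of 0.0498 to 0.0584 in edgeR. Pituitary markers ranged from 10 to 3570 CPM in vehicle, 218 to 2300 in RvD6-standard and 20.8 to 697 in RvD6-isomer, with 1 of 5 tested members higher.

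Of the remaining cell types, endothelial markers had 0 of 13 higher and 3 lower, Esam at -0.72 (SE 0.20), Sox17 at -1.001 (SE 0.33) and Cldn5 at -0.40 (SE 0.16). The other members mostly went the other way: 8 of the 13 estimates were positive, with a median of 0.20 (0.33 under RvD6-standard and -0.16 under RvD6-isomer). Fibroblast markers had 3 of 11 higher, with the collagen genes Col1a1 at 1.76 (SE 0.51) and Col1a2 at 0.64 (SE 0.23). Their median was 0.64 under RvD6-standard and 0.08 under RvD6-isomer, with 7 of the 11 of the same sign under both. Pericyte markers had 1 of 9 higher, and lymphocyte markers 0 of 6 in either direction. The pericyte medians were 0.73 under RvD6-standard and -0.16 under RvD6-isomer, and the lymphocyte medians 1.6 and -0.07, so neither was common to both lipids.

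**Figure D5:**
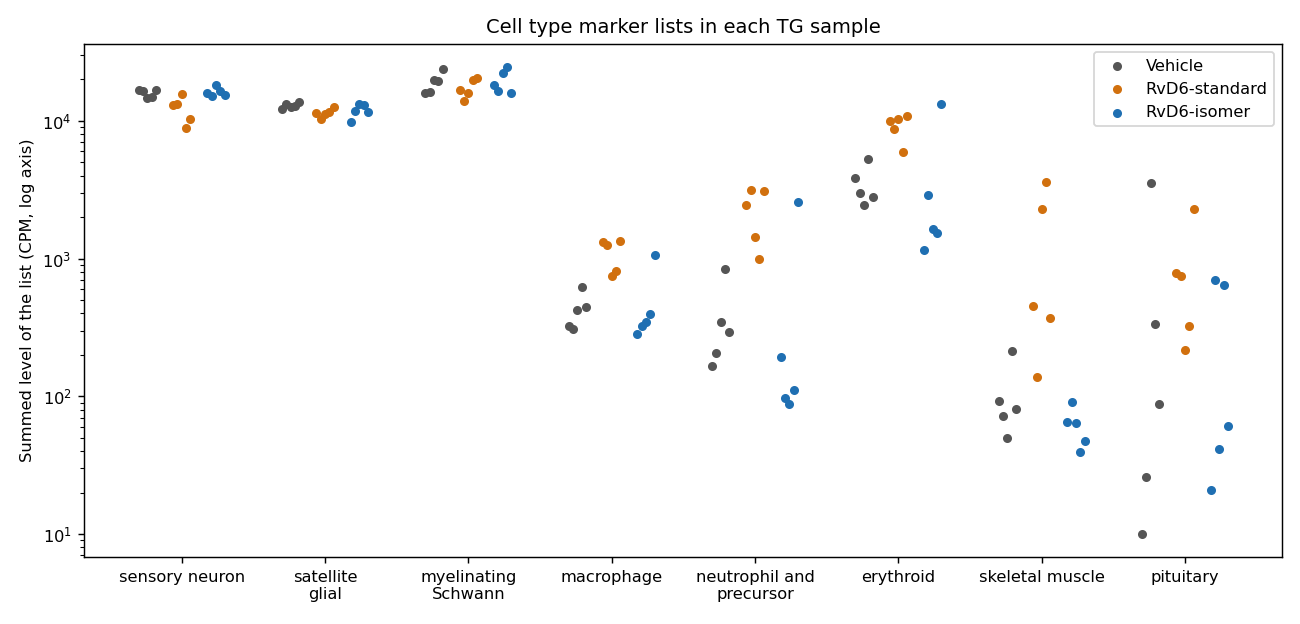
Summed level of cell type marker lists (vertical axis, CPM on a log scale) in each TG sample, by treatment group. RvD6-standard samples and isomer 15 are highest for neutrophil and erythroid markers, and standard 8 and standard 9 for skeletal muscle markers.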

How the data were processed

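RNA of 15 right TG (1 ng of total RNA per sample in an adapted Smart-seq2 protocol with oligo-dT priming and Nextera XT libraries) was sequenced by the authors, who aligned the reads to GRCm38 with GENCODE M22 and counted them per gene. The values used here are the deposited raw counts. The labels name Subread 1.6.5, and the file header names featureCounts v1.5.0-p1. The counting command in that header sets no strand option, so genes that overlap on opposite strands cannot be told apart.

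Counts were tested in R 4.3.3 with edgeR 4.0.16 (TMM scaling, filterByExpr with a count minimum of 10, quasi-likelihood F test, Benjamini-Hochberg adjustment, threshold 0.05), with both lipids as 1 group, and in a 3-group fit for each lipid and their difference. DESeq2 1.42.0 (its adjusted p was NA for 5140 genes, which were not counted as called) and limma 3.58.1 served as alternatives. Normalized counts are counts divided by DESeq2 size factors. The pooled edgeR and DESeq2 fits and the removal of the length trend were tested on simulated data, and the other steps were not. The SE is the absolute log2 fold change over the square root of F. Intervals between the lipids are unadjusted. Single values per sample were compared with exact permutation tests over all 3003 splits. Total counts, 4125962 to 9903396 per sample, set the counting error.

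Named genes were the 12 higher and 12 lower with the same sign under each lipid, a mean of at least 20 normalized counts, no predicted gene model, and the smallest p, plus 7 genes plotted by the study. List members would have been added had any passed. The comparison, gene lists and rule were chosen with earlier results of these data known. Promoter letters are from RefSeq. Among the called genes Spcs3 had no entry, and that of Svip lay wholly within an annotated transcript and was not printed. The labels number the samples without naming animals, so p-values measure the spread between these samples. Replicates were not duplicates: over 30 pairs within groups the chi-square of their counts was 10.7 to 45.1 per degree of freedom.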

Additional observations from a re-analysis of the deposited data

Results flagged for a closer look

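For each named gene and each value per sample, the highest or lowest of the 5 samples of a group was set against the other 4 (Dixon's ratio). Over 105 groups 8 values stood out, where chance alone gives about 1 in 20. Several came from the same library, so they are not independent and that rate is only a rough guide. For named genes the outlying values were those of standard 9, standard 8 and vehicle 2. In standard 9, Spcs3 had 576 normalized counts against 188 to 292 in the other RvD6-standard samples, Nxt2 508 against 157 to 204, Slc16a1 642 against 233 to 344 and Ints3 228 against 119 to 144. These 4 are genes that were higher with the lipids, and isomer 11 held the highest RvD6-isomer value of each. In standard 8, Cgrrf1 had 442 against 303 to 326, the value closest to vehicle. In vehicle 2, Spcs3 had 153 against 92.4 to 104, and Pop5 had 590 against 780.4 to 826, in both cases nearer to the lipid-treated samples.

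The slope of log2 level on GC content was -0.2103 per 10 percentage points in isomer 11, against 0.0164 to 0.0678 in the other RvD6-isomer samples. Standard 9 had -0.206, and vehicle samples had 0.0132 to 0.104. With both libraries left out, a fit added after the data were seen, edgeR called 0 genes (2075 at an unadjusted p below 0.05), and the 6 called genes had log2 fold changes of 1.04 (Alpl), 1.61 (Antxr2), 1.33 (Spcs3), 1.00 (Acvr2a), 1.03 (Svip) and -0.74 (Cgrrf1), each with an unadjusted p of 7.34e-05 or less. With the GC trend removed from every library, edgeR also called 0 genes (2611 at an unadjusted p below 0.05), and the 6 genes, in that order, had 1.13, 1.72, 1.41, 0.87, 1.09 and -0.76, with adjusted p of 0.0515 to 0.117.

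The share of all counts taken by the 10 most counted genes differed between the lipids by -5.7 percentage points, 13.5% ± 0.559 in RvD6-isomer and 19.2% ± 1.74 in RvD6-standard (two-sided exact permutation test, p = 0.00794, the smallest that 5 against 5 samples allow). Vehicle, at 16.8% ± 0.483, lay between them, so on this measure the lipids stood on opposite sides of vehicle and the pooled difference was -0.43 (exact permutation test, p = 0.788).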

How the results depend on the processing

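The pooled count of 6 genes remained 6 with RLE scaling and was 7 with the length trend removed. It was 10 with the mean of both lipids in the 3-group fit, 36 with at least 10 counts in every sample, 2 with libraries thinned to the lowest total, 646 with DESeq2, and 0 with no filter, with the GC trend removed and with limma-voom (5509, 2611 and 2792 genes at an unadjusted p below 0.05). In those 3 fits the log2 fold changes were 1.06 to 1.13 for Alpl, 1.72 to 1.76 for Antxr2, 1.41 to 1.61 for Spcs3, 0.87 to 1.03 for Acvr2a, 1.09 to 1.16 for Svip and -0.77 to -0.74 for Cgrrf1, with adjusted p of 0.0515 to 0.117. Among fits added after the data were seen, it was 23 with neutrophil markers as a covariate, 3 with muscle markers and 0 without standard 9 and isomer 11. Leaving out 1 library gave 0 to 16. The count for RvD6-standard was 0, with 56 without a filter, 1 with the length trend removed, 309 with DESeq2 and 0 to 51 with 1 library left out. For RvD6-isomer it was 111, with 63 with the length trend removed, 853 with DESeq2 and 0 to 252 with 1 left out. Between the lipids it was 39, with 59 without a filter, 144 with DESeq2 and 2 to 151 with 1 left out. The count for both lipids was 0 except with DESeq2, at 8. The cause of these shifts was not tested.

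With 1 library left out, the difference in total counts ranged from -2167000 to -1505000, that in the share of the 10 most counted genes from -1.004 to -0.0267 percentage points, and that in the length slope from 0.0725 to 0.1004. None of the 31 named genes changed sign in the alternatives run. No paired analysis was possible because the labels number the samples 1 to 15 through all groups, so that none share a number. Genes just past or just short of the threshold are not separated by these data.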

Other observations

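Some gene groups outside the main account held single genes with the same sign under both lipids. None passed in edgeR (adjusted p of 0.106 or more), and they were chosen after their values were seen. Of 17 circadian clock genes 3 were higher and 0 lower at an unadjusted p below 0.05. Nr1d1, a repressor of the clock loop, was at log2 1.09 (SE 0.28, 249.8 ± 84.6 normalized counts with the lipids against 117 ± 53.5), Bhlhe40, another repressor, at 1.30 (SE 0.34) and Clock at 0.52 (SE 0.21). The count was 2 without standard 9 and isomer 11. Hours of tissue collection are not given in the sources used here.

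Of 16 immediate early genes 3 were higher (5 with the GC trend removed), with Ier2 at 1.04 (SE 0.37) and Junb at 0.85 (SE 0.35), the latter 0.27 under RvD6-standard and 1.27 under RvD6-isomer. Histone methyltransferases and demethylases had 3 of 41 higher, close to the share of all genes, with Ehmt2 at 0.74 (SE 0.28), and 1 of 41 without standard 9 and isomer 11. Lifr, a cytokine receptor subunit on the nerve injury list, was at 0.65 (SE 0.18), with 2145 ± 628 normalized counts against 1359 ± 264.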
